A study of Mus musculus with 100 samples.

Results

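Genes of red cell formation were examined in mouse knee joints, with a set of 8 members taken by name out of the 17310 genes of the count table. The set holds the adult haemoglobin chains Hba-a2 and Hbb-bs, the haem synthesis enzyme Alas2, the carbonic anhydrases Car1 and Car2, the membrane proteins Slc4a1 and Epb42, and the transcription factor Klf1. All 8 members were listed and tested, and the lowest count of any member in any library was 5.

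RNA sequencing was done on 100 poly(A) libraries of whole knee joints, cut at the edges of femur and tibia with traces of soft tissue, from mice given as 10 weeks old. The strains were MRL/MpJ (MRL), labelled not susceptible to post-traumatic osteoarthritis, C57BL/6 (BL6, given as C57BL/6J in the study's methods) and STR/ort (STR), and the labels name no transgene or drug. At 0-day both knees were intact, and later the right knee had been injured 1-day, 1-week or 2-weeks before by a compressive load of 10 to 12 N while the other knee was the uninjured contralateral joint. The study's methods give isoflurane anaesthesia for the injury and the analgesic buprenorphine right after it. Whether the 0-day mice were given either is not stated. The strains, times and joints form 21 groups of 4 or 5 libraries. Total counts ran from 6182016 to 20986027 with a median of 10582592. The labels put the 70 libraries of 0-day, 1-day and 1-week in experimental batch 1 and the 30 libraries of 2-weeks in batch 2, so any difference of 2-weeks from an earlier time may be one of batch or of time, which cannot be told apart.

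Red cells form in the bone marrow, where precursors fill with haemoglobin, a tetramer of alpha and beta chains that each hold a haem group. Klf1, a zinc finger factor of this lineage, binds CACCC elements of beta globin and other erythroid genes, and Gata1 binds GATA elements in the same genes. The joint ends of femur and tibia contain marrow, so its cells and any blood left in the joint enter a library of the whole joint. In such bulk RNA, fewer erythroid cells and less erythroid RNA per cell cannot be told apart.

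Both haemoglobin members have a near-identical neighbour in the genome, which bears on what a count of reads stands for. Hba-a2 lies at chr11:32296492-32297310 and Hbb-bs at chr7:103826523-103827928 (RefSeq, build GRCm38.p6). The reference coding sequences of Hba-a2 and Hba-a1, both alpha chains, have 429 bases and differ at 1, written T381C. Those of the beta chains Hbb-bs and Hbb-bt have 444 bases and differ at 1, written C417T. Positions count from 1 at the first base of the start codon, with the Hba-a2 or Hbb-bs base first. The stretches below show these sites, coding bases 351 to 410 for the alpha chains and 385 to 444 for the beta chains, with the differing base in capitals.
Hba-a2: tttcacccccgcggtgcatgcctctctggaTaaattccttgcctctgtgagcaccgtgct
Hba-a1: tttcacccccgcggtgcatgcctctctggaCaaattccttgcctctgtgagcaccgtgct
Hbb-bs: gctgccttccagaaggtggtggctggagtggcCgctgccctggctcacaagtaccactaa
Hbb-bt: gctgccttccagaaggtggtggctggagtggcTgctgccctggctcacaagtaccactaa

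Of the 505 windows of 50 bases in the Hba-a2 transcript, 439 (86.9%) also occur in Hba-a1, and 381 of 579 windows of Hbb-bs (65.8%) occur in Hbb-bt. Windows shared with any other gene made up 13.8% in Alas2 (with Apex2 and Mir3620), 14.5% in Car1 (with Gm5843) and 0.0738% in Epb42, and 0 in Car2, Slc4a1 and Klf1. Whether reads that fit several genes were counted is not given in the sources used here. Hba-a1 and Hbb-bt have no entry under these names in the count table. Levels of Hba-a2 and Hbb-bs are therefore those of reads assigned to these entries, and not of all alpha or beta globin RNA. The reference sequences are those of the GRCm38 build, and whether MRL or STR differs from it in these genes was not examined.

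Upstream of the start site, the members with a RefSeq promoter entry (5 of 8, without Car1, Car2 and Slc4a1) all held a GATA motif, searched on both strands in the 250 bases before the start. The motif was AGATAA with its variants TGATAA (first base), AGATAG (last base) and TGATAG (both). It occurred in 26.5% of 32851 promoters. The 40 bases around the match are printed in the direction of the gene with the motif in capitals, where capitals that begin with TTATC are matches on the opposite strand.
Hba-a2, chr11:32296289-32296328, plus strand: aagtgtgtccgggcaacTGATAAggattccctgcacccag
Hbb-bs, chr7:103828116-103828155, minus strand: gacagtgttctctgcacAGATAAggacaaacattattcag
Alas2, chrX:150547314-150547353, plus strand: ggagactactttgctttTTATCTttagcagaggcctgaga
Epb42, chr2:121037081-121037120, minus strand: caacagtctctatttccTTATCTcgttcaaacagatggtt
Klf1, chr8:84901885-84901924, plus strand: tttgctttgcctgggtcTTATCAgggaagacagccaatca

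The matches lay 186, 210, 86, 226 and 80 bases before the start in that order. A CACCC motif, searched on both strands as CCNCNCCC, occurred 1 time in the Hbb-bs promoter and 4 times, partly overlapping, in that of Alas2, and in 45.9% of all promoters. These are matches of letters in the reference sequence and do not show binding.

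Levels are given as CPM, which are counts relative to library size, with TMM factors computed over the 100 libraries. Within the groups, 4 libraries were taken as standing apart in the summed CPM of the 6 members other than the globins, a choice made after seeing the data. STR 1-week uninjured replicate 3 had a sum of 4183, against 1676 to 2581 in the other libraries of its group. STR 1-week injured replicate 1 had 931 against 1759 to 2784. Replicate 3 of that group, at 2784 with the next library at 1864, was not counted among the 4. BL6 1-day uninjured replicate 1 had 2872 against 3967 to 4422, and MRL 2-weeks injured replicate 4 had 3057 against 4527 to 5552. Member calls that changed when these 4 libraries were left out are named beside the results they touch. A gene was called where the quasi-likelihood test of edgeR gave a Benjamini-Hochberg adjusted p under 0.05 over all genes and the fold change exceeded 1.5. The p values set a difference between group means against the spread between libraries within groups. At 2-weeks this test treats the 2 joints of an animal as separate libraries.

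**Figure D1:**
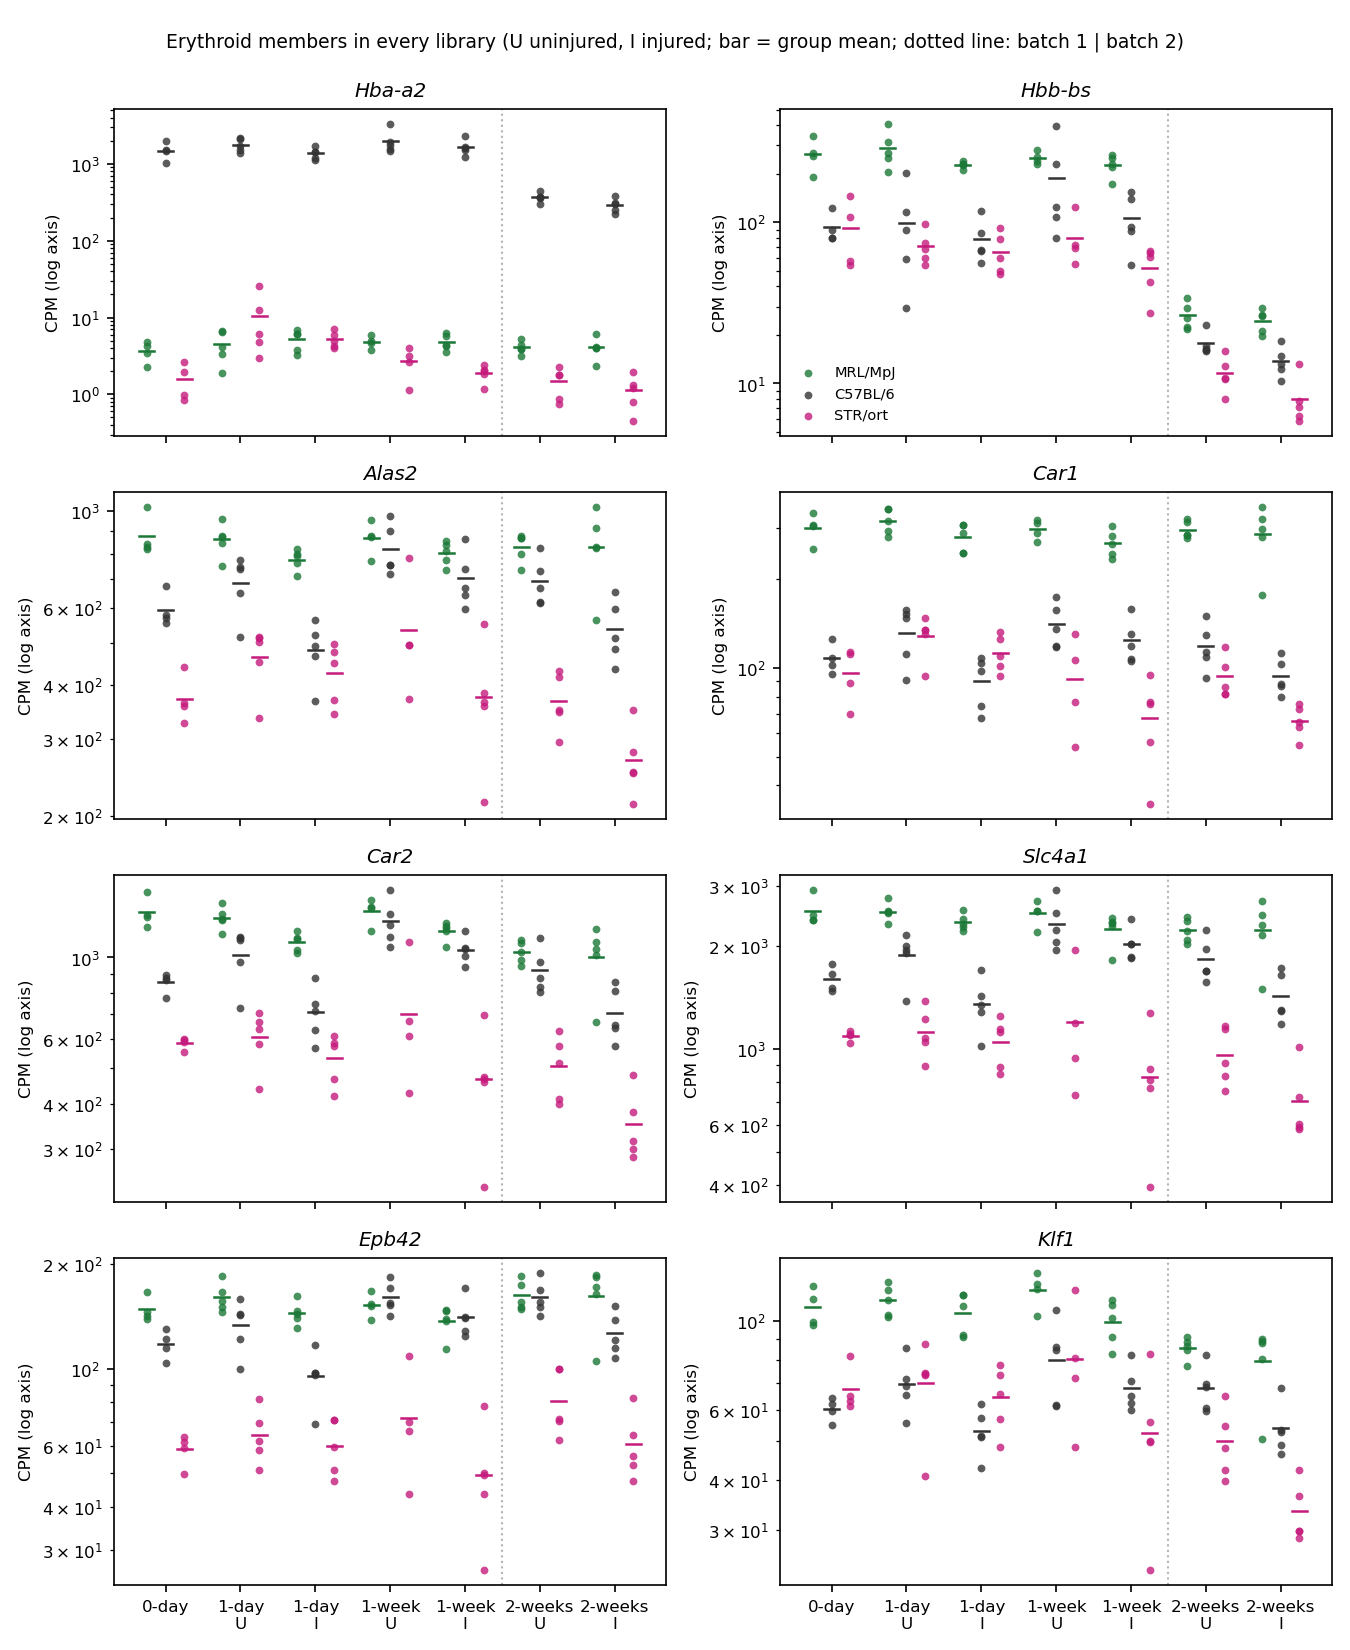
CPM of each member (log axis) in every library by time and joint, with MRL/MpJ in green, C57BL/6 in black and STR/ort in pink, and a bar at each group mean. Hba-a2 lay between 223 and 3285 CPM in the BL6 libraries and reached at most 25.5 CPM in the others, and Hbb-bs was lower in all strains in batch 2.

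Hba-a2 encodes an adult alpha globin chain. At 0-day its level in BL6 was 1019, 1473, 1973 and 1492 CPM in the 4 libraries. In MRL it was 4.79, 3.49, 2.24 and 4.31 CPM, and in STR 1.94, 2.61, 0.835 and 0.982 CPM. The BL6 libraries stood apart from both other strains without overlap, and MRL and STR shared part of their range. BL6 against MRL had a log2 fold change of 8.65 (SE 0.25, adjusted p = 9.9e-15).

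In the batch 1 libraries after 0-day, BL6 remained between 1114 and 3285 CPM. At 2-weeks it was 302, 441, 370.1, 359 and 370.4 CPM in uninjured and 223, 378, 254, 310.4 and 301 CPM in injured joints, below every BL6 library of batch 1. MRL stayed between 1.88 and 6.93 CPM over all 7 groups. STR had 12.5, 25.5, 4.76, 3.01 and 6.02 CPM in its uninjured joints at 1-day, its highest group mean. It had 4.00 to 7.05 CPM in its injured joints at 1-day and between 0.450 and 4.03 CPM elsewhere. Every BL6 library was thus above every library of the other strains at each time. The difference was called in each comparison of BL6 with MRL, with log2 fold changes of 6.16 to 8.69, and in each of STR with BL6, with -9.90 to -7.42.

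MRL and STR differed less in Hba-a2, and not always in the same direction. STR was called lower than MRL at 0-day (log2 fold change -1.25, SE 0.39, adjusted p = 0.0177), a call that was lost without MRL replicate 1 (log2 -1.06, adjusted p = 0.0748) or STR replicate 3 (-1.02, adjusted p = 0.0656) or 4 (-1.10, adjusted p = 0.052), and in 1 fit of all libraries (-1.25, adjusted p = 0.0564). It was also called lower in injured joints at 1-week and in both joints at 2-weeks. In uninjured joints at 1-day STR was called higher than MRL (log2 fold change 1.27, SE 0.39, adjusted p = 0.00811). Without STR replicate 2, the library at 25.5 CPM, that difference was 0.65 on the log2 scale with an adjusted p of 0.111 and was no longer called. The same held with 1 factor of unwanted variation from housekeeping genes (RUVg), which gave 0.77 and an adjusted p of 0.408.

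Hbb-bs encodes an adult beta globin chain and ordered the strains differently. At 0-day MRL had 190.5, 344, 269.9 and 258 CPM. BL6 had 89.7, 80.2, 122 and 80.5 CPM and STR 54.3, 57.9, 147 and 109 CPM. Every MRL library was above all others, while BL6 and STR overlapped. Hbb-bs was called lower than in MRL in BL6 (log2 fold change -1.47, SE 0.24, adjusted p = 0.000106) and in STR (log2 fold change -1.53, SE 0.24, adjusted p = 7.77e-05). STR against BL6 had a log2 fold change of -0.06 (SE 0.24, adjusted p = 0.874), which was not called, although with RUVg it was -0.95 (adjusted p = 0.00379) and called.

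The spread of Hbb-bs within groups was wide in BL6. The uninjured joints of BL6 had 59.1, 29.6, 116, 203 and 89.7 CPM at 1-day. At 1-week they had 398, 79.4, 124, 232 and 108 CPM. The uninjured joints of MRL had 314, 206, 270.0, 250.01 and 407 CPM at 1-day, all above the BL6 libraries of that time, and 242, 231, 255 and 283 CPM at 1-week, where the 2 strains overlapped. STR was called lower than MRL in all 7 comparisons, with log2 fold changes of -2.13 to -1.20. BL6 was called lower than MRL in 6 of 7, the exception being uninjured joints at 1-week (log2 fold change -0.42, SE 0.33, adjusted p = 0.431). Without BL6 replicate 1 of that group the difference was -0.89 (adjusted p = 0.0359) and was called. The call in uninjured joints at 2-weeks (log2 fold change -0.60, SE 0.17, adjusted p = 0.0116) lay near the fold limit. It was lost with any of 5 single libraries left out (nearest to 0 at -0.50) and in 1 fit of all libraries (adjusted p = 0.208). In that fit STR against BL6 also lost its calls at 2-weeks in uninjured (adjusted p = 0.223) and injured joints (adjusted p = 0.118). The first of these (log2 fold change -0.60, SE 0.19, adjusted p = 0.0168) was lost as well with housekeeping scaling (-0.53), with filterByExpr (-0.58) and without BL6 replicate 2 (-0.50, adjusted p = 0.0641) or STR replicate 2, 3 or 4 (-0.58 to -0.49). In uninjured joints at 1-day STR against BL6 was not called (log2 fold change -0.49, SE 0.29, adjusted p = 0.226), and was called without BL6 replicate 2 (-0.71, adjusted p = 0.0349).

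Alas2 encodes the erythroid form of the first enzyme of haem synthesis. In MRL the 0-day libraries had 840.3, 1022, 818 and 829 CPM. BL6 had 579, 555, 673 and 569 CPM and STR 439.8, 357, 326 and 364 CPM, so that the groups formed steps without overlap. STR against MRL had a log2 fold change of -1.23 (SE 0.10, adjusted p = 2.82e-08), and STR against BL6 a log2 fold change of -0.71 (SE 0.10, adjusted p = 2.47e-05), both called. BL6 against MRL had a log2 fold change of -0.52 (SE 0.10, adjusted p = 0.000442) and did not pass the fold limit, which it did with RUVg (-0.61, adjusted p = 0.000282). Later, STR was called lower than MRL in all 6 comparisons, with log2 fold changes down to -1.61 in injured joints at 2-weeks. There the 5 STR libraries had 351, 252, 251, 213 and 280.3 CPM against 1021, 822, 828, 563 and 917 CPM in MRL. The call in uninjured joints at 1-week (log2 fold change -0.68, SE 0.19, adjusted p = 0.00449) was lost with RUVg (adjusted p = 0.0826) and without STR replicate 1 (-0.54). STR was also called lower than BL6 there (log2 fold change -0.60, SE 0.18, adjusted p = 0.00854), a call lost with RUVg (adjusted p = 0.0872) and without BL6 replicate 1 or 4 or STR replicate 1, 2 or 4 (-0.56 to -0.46). In uninjured joints at 1-day STR against BL6 had a log2 fold change of -0.55 (SE 0.12, adjusted p = 0.000731) and passed the fold limit with housekeeping scaling (-0.65), with RUVg (-0.72) and without BL6 replicate 1 or STR replicate 1 or 5 (-0.65 to -0.59).

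Car1 encodes the carbonic anhydrase that abounds in red cells. At 0-day MRL had 303, 336, 253 and 306 CPM. BL6 had 95.5, 108, 125 and 103 CPM and STR 112, 113, 70.0 and 89.0 CPM. MRL was above every library of both other strains, which overlapped. BL6 was called lower than MRL in all 7 comparisons, by 2.10 to 3.05 fold, and STR in all 7, by 2.39 to 4.27 fold. STR was called lower than BL6 only at 1-week, in uninjured (log2 fold change -0.59, SE 0.21, adjusted p = 0.0223) and injured joints (log2 fold change -0.88, SE 0.20, adjusted p = 0.000408). The first of these calls was lost without BL6 replicate 1 (-0.54) or 4 (-0.51, adjusted p = 0.0607) and without STR replicate 1 (-0.40, adjusted p = 0.119) or 2 (-0.50, adjusted p = 0.0788). In injured joints at 1-day STR against BL6 had a log2 fold change of 0.31 (SE 0.14, adjusted p = 0.0915), in the other direction and not called.

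Car2 encodes a carbonic anhydrase of red cells that osteoclasts also use to acidify bone. The 0-day levels in MRL were 1290.3, 1509.7, 1212 and 1305 CPM, BL6 777, 870.2, 896 and 877 CPM and STR 589, 594, 551 and 599 CPM, without overlap. STR was called lower than MRL in all 7 comparisons, with log2 fold changes of -1.50 to -0.91, and lower than BL6 in 6, the exception being injured joints at 1-day (log2 fold change -0.42, SE 0.13, adjusted p = 0.0112), which was called with RUVg (-0.71, adjusted p = 0.00119). Of the 8 osteoclast markers, 1 was called higher and 1 lower in STR against MRL at 0-day, with a median log2 fold change of -0.17, beside -1.18 for Car2. The part of osteoclasts in the Car2 level was not tested.

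Slc4a1 encodes band 3, the anion exchanger of the red cell membrane. At 0-day MRL had 2384, 2915, 2392 and 2465 CPM, BL6 1479, 1507, 1778 and 1654 CPM and STR 1097, 1107, 1039 and 1128 CPM, without overlap. STR was called lower than MRL in all 7 comparisons, with log2 fold changes of -1.66 to -1.03. BL6 and MRL came closest at 1-week. There the uninjured joints of BL6 had 2497, 2051, 1945, 2912 and 2228 CPM and those of MRL 2202, 2709, 2526 and 2534 CPM, groups that overlapped (log2 fold change -0.10, SE 0.22, adjusted p = 0.828).

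Epb42 encodes protein 4.2, which ties band 3 to the membrane skeleton. Before injury MRL had 139, 167, 146 and 142 CPM, BL6 104, 115, 130.3 and 122 CPM and STR 59.2, 61.5, 49.8 and 63.7 CPM. STR lay below BL6 and BL6 below MRL without overlap, although BL6 against MRL was not called (log2 fold change -0.29, SE 0.09, adjusted p = 0.014). Among the members other than Hba-a2, Epb42 was the one called lower in STR than in BL6 in all 7 comparisons, with log2 fold changes of -1.52 to -0.67. In injured joints at 1-day that call was lost without BL6 replicate 2 (-0.58). BL6 was called lower than MRL only in injured joints at 1-day (log2 fold change -0.59, SE 0.13, adjusted p = 0.000547), just past the fold limit. That call was lost with the filter of filterByExpr (-0.57) and with any of 5 single libraries left out (-0.58 to -0.49).

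Klf1 encodes the erythroid transcription factor described above. At 0-day MRL had 99.3, 122, 97.5 and 113 CPM. BL6 had 54.9, 62.1, 64.2 and 59.5 CPM and STR 63.1, 64.8, 61.3 and 81.6 CPM. MRL was above every library of the other strains. BL6 was the lower of these in the mean, but its range overlapped with that of STR (log2 fold change 0.13, SE 0.09, adjusted p = 0.308, not called). STR was called lower than BL6 only in injured joints at 2-weeks, where it had 42.5, 28.7, 29.8, 29.9 and 36.4 CPM against 46.4, 67.8, 49.0, 52.7 and 53.5 CPM, without overlap (log2 fold change -0.68, SE 0.14, adjusted p = 0.000449). In injured joints at 1-week it was called with RUVg (-0.80, adjusted p = 0.0474) and without STR replicate 3 (-0.61, adjusted p = 0.015), beside -0.38 with all libraries. At 1-day STR was called lower than MRL in uninjured joints (log2 fold change -0.64, SE 0.14, adjusted p = 0.000324), a call lost without STR replicate 2 (-0.50).

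**Figure D2:**
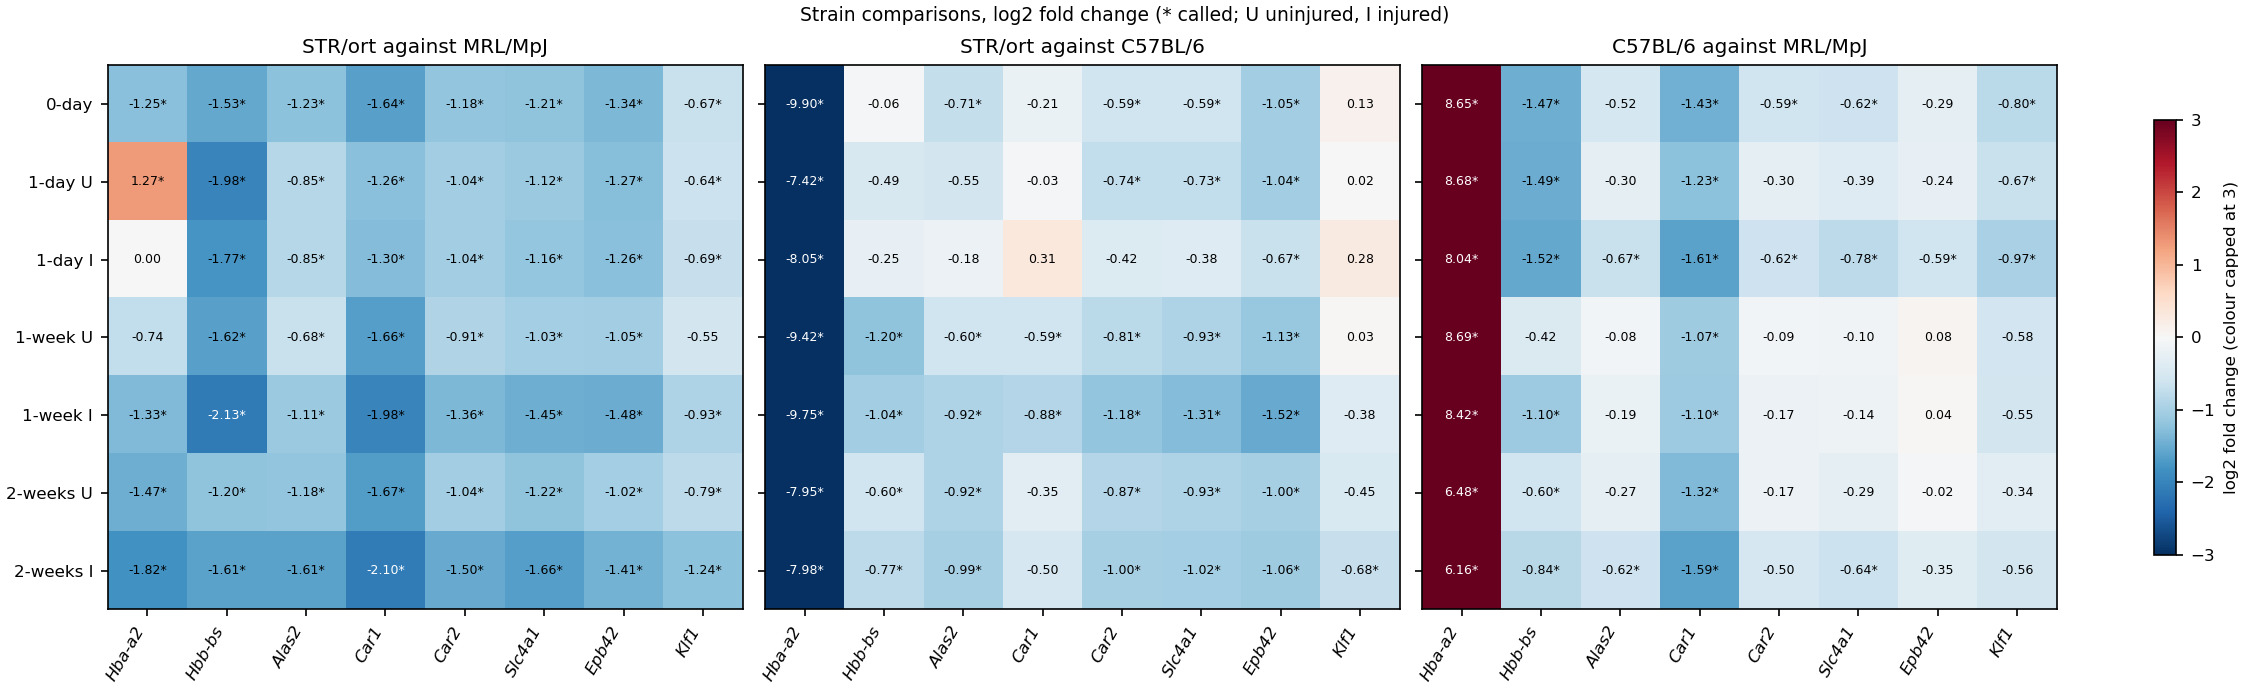
Log2 fold changes of the members (columns) between strains at each time and joint (lines), with an asterisk where called and colours capped at 3 on either side of 0. Hba-a2 was higher in BL6 than in MRL throughout and the 7 other members lower, but for Epb42 at 1-week (0.08 and 0.04, not called), while STR against MRL was negative throughout for the 7 other members.

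At 0-day, all 8 members were called lower in STR than in MRL, where 14.8% of all genes were called in either direction. In STR against BL6, 5 members were called lower (13.8% of genes), and in BL6 against MRL 5 lower and Hba-a2 higher (15.9%). Of the 5 in STR against BL6, Slc4a1 (log2 fold change -0.59, SE 0.09, adjusted p = 5.27e-05) and Car2 (log2 fold change -0.59, SE 0.08, adjusted p = 2.37e-05) lay just past the fold limit. Both were lost with DESeq2, its size factors in edgeR (RLE) or 1 fit of all libraries, which left 3, and with RUVg, which left 4 with Hbb-bs added. Both were also lost without BL6 replicate 3 or 4 or STR replicate 3, and Car2 without BL6 replicate 2. In BL6 against MRL the same 2 genes were lost with housekeeping scaling (-0.54 and -0.52) and without BL6 replicate 1, and Car2 without MRL replicate 2. The median log2 fold change of the 8 members was -1.24, -0.59 and -0.61 in these comparisons, beside 0.01, -0.06 and 0.01 over all genes. The comparisons share libraries, since each strain enters 2 of the 3.

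Later calls also set STR below MRL, except for Hba-a2 in uninjured joints at 1-day, while the place of BL6 varied. In uninjured joints at 1-day, 8 members were called in STR against MRL (7 lower, 22.6% of genes), 4 in STR against BL6 (10.5%) and 4 in BL6 against MRL (14.8%). In injured joints at 1-day these were 7 (20.3%), 2 (12.4%) and 8 (16.3%). In uninjured joints at 1-week they were 6 (24.4%), 7 (22.2%) and 2 (8.53%), and in injured joints 8 (29.5%), 7 (25.1%) and 3 (9.47%). In uninjured joints at 2-weeks they were 8 (13.8%), 6 (9.78%) and 3 (9.83%), and in injured joints 8 (18.9%), 7 (10.4%) and 5 (11.5%). Calls in BL6 against MRL were thus fewest in uninjured joints at 1-week, where Hba-a2 and Car1 were the members called. Without the 4 libraries that stood apart, STR against MRL in uninjured joints at 1-week had 8 calls instead of 6, with Klf1 (-0.82, adjusted p = 0.00057) and Hba-a2 (-1.02, adjusted p = 0.0344) added. With all libraries kept, Klf1 was also called there with housekeeping scaling (-0.70) and RUVg (-1.10), and Hba-a2 with housekeeping scaling (-0.89) and DESeq2 (-0.76). Without the 4 libraries, BL6 against MRL in injured joints at 2-weeks had 7 instead of 5, with Car2 (-0.64) and Klf1 (-0.71) added. The same comparison lost Slc4a1 (-0.56 and -0.58) and Alas2 (-0.54 and -0.56) without MRL or BL6 replicate 1. In BL6 against MRL in injured joints at 1-day Car2 was lost without BL6 replicate 1 or 4 (-0.58 and -0.55). Without the 4 libraries, Alas2 was added in STR against BL6 in uninjured joints at 1-day (-0.65), and Hbb-bs was lost there at 2-weeks (-0.58). With all libraries, every call was lower in the first named strain but for Hba-a2 in BL6 against MRL and in STR against MRL in uninjured joints at 1-day.

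Lists of other erythroid genes, chosen with results of these data known, had medians below 0 in STR against MRL at 0-day. There 14.8% of all genes were called. Of the genes named in this paragraph and the next, Kel, Ppox, Tspo2, Lmo2 and Foxo3 were also called lower in STR than in BL6. Sptb (log2 fold change -0.20), Zfpm1 (-0.21), E2f2 (-0.54) and Epor (-0.13) were not called against BL6, and Alad and Fam132b were called higher. Of 18 genes of the red cell membrane, 14 were called lower in STR than in MRL (median log2 fold change -0.89). Kel, a blood group protein of the membrane, had 237 ± 24.8 CPM (mean ± SD, n = 4 here and in the values that follow) in MRL, 142 ± 9.49 in BL6 and 90.9 ± 5.33 in STR. Sptb, the beta chain of the spectrin skeleton, had 794 ± 61.4, 420.2 ± 56.7 and 375 ± 38.1 CPM. Of 14 genes of haem synthesis, 8 were called lower (median -0.70). Alad, the second enzyme of that pathway, broke the order of strains, with 271 ± 33.2 CPM in MRL, 47.9 ± 4.68 in BL6 and 93.1 ± 8.40 in STR, and was called higher in STR than in BL6 (log2 fold change 0.92, SE 0.09, adjusted p = 8.07e-07). Ppox, a later enzyme, was lowest in STR, at 27.0 ± 2.06 CPM beside 60.9 ± 7.82 in MRL and 66.4 ± 4.31 in BL6.

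Of 19 tested late red cell genes, 17 were called lower in STR than in MRL (median -0.88). Tspo2, a translocator protein of erythroblasts, showed the greatest difference among the named genes of that list, with 45.1 ± 5.19 CPM in MRL, 27.9 ± 3.17 in BL6 and 4.43 ± 1.48 in STR (STR against MRL: log2 fold change -3.35, SE 0.16, adjusted p = 2.11e-11). Of 12 erythroid transcription factors and partners, 7 were called lower (median -0.69), among them Lmo2, E2f2, Zfpm1 and Foxo3. Of 10 genes of erythropoietin signalling and iron uptake, 2 were called lower and 1 higher (median -0.40). The erythropoietin receptor Epor fell by 0.91 on the log2 scale (SE 0.11, adjusted p = 3.99e-06). Fam132b, which encodes the hormone erythroferrone that erythroblasts release, was the gene called higher, with 1.46 ± 0.280 CPM in MRL and 3.17 ± 0.465 in STR.

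The other globin genes tested had low levels. Hbq1b, a theta-like chain, had 5.11 ± 0.706 CPM in MRL, 4.24 ± 0.528 in BL6 and 3.62 ± 0.850 in STR, and was not called in any strain comparison at 0-day. Hba-x, the embryonic zeta chain, did not exceed 1.38 CPM at 0-day and was called lower than in MRL in STR (log2 fold change -2.21, SE 0.64, adjusted p = 0.0117) and in BL6 (-1.49, SE 0.56, adjusted p = 0.0447). Hbq1a, another theta-like chain, had 0 counts in all 4 STR libraries at 0-day and at most 0.599 CPM in the other strains, and was called lower in STR than in MRL (adjusted p = 0.00192) and BL6 (adjusted p = 0.0368). These calls rest on few counts. Among markers of other cells, 7 of 10 B cell genes were called higher in STR than in MRL at 0-day (median 0.69), and 1 of 13 neutrophil genes of the marrow lower (-0.34), while the median of 11 megakaryocyte genes was -0.15. In BL6 against MRL, all 8 skeletal muscle markers were called lower (-0.76) and 7 of 7 tested cartilage markers higher (1.196). The part of these tissue shares in the member levels was not tested.

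**Figure D3:**
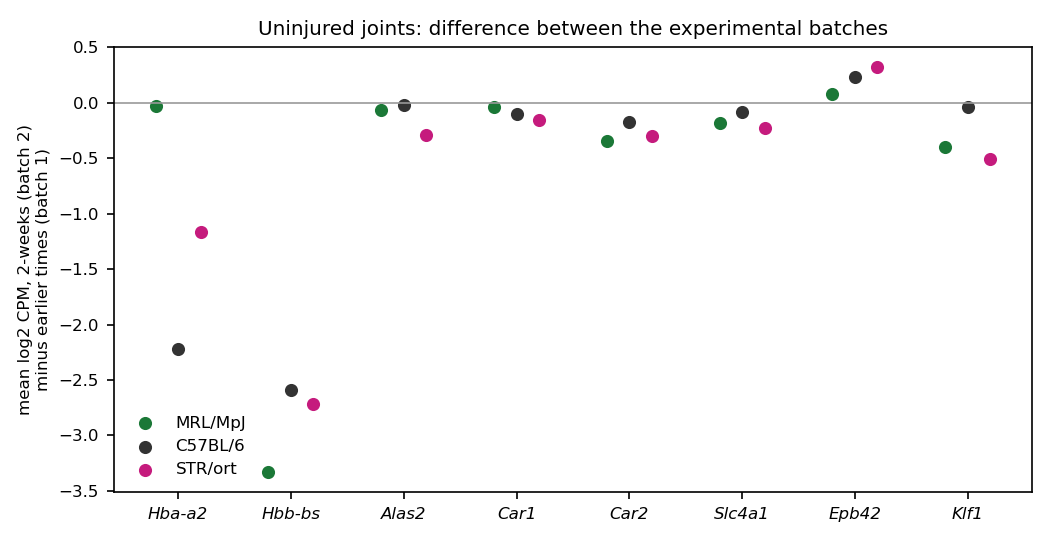
Mean log2 CPM of uninjured joints at 2-weeks (batch 2) minus that of the earlier times (batch 1) for each member and strain. Hbb-bs lay at -3.33 to -2.59 in the 3 strains, Hba-a2 in BL6 at -2.22, and the 6 members that are not globins between -0.51 and 0.32.

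The batches differed for the globins and less for the other members. In uninjured joints the mean log2 CPM of Hbb-bs at 2-weeks minus that at the earlier times was -3.33 in MRL, -2.59 in BL6 and -2.72 in STR (5 libraries against 13, 14 and 13). Only 0.144%, 0.237% and 0.214% of all genes had a difference as low or lower. For Hba-a2 it was -2.22 in BL6, -1.16 in STR and -0.03 in MRL. The STR value pools unlike groups, with mean Hba-a2 CPM of 1.59 at 0-day, 10.4 at 1-day and 2.74 at 1-week, beside 1.49 at 2-weeks. The 6 other members differed by -0.51 to 0.32 in any strain, with Klf1 at -0.40, -0.04 and -0.51 and Epb42 at 0.08, 0.23 and 0.32 in MRL, BL6 and STR. Hbq1b was higher at 2-weeks, by 0.48 to 0.61. These are differences without a test, since every 2-weeks library belongs to batch 2.

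**Figure D4:**
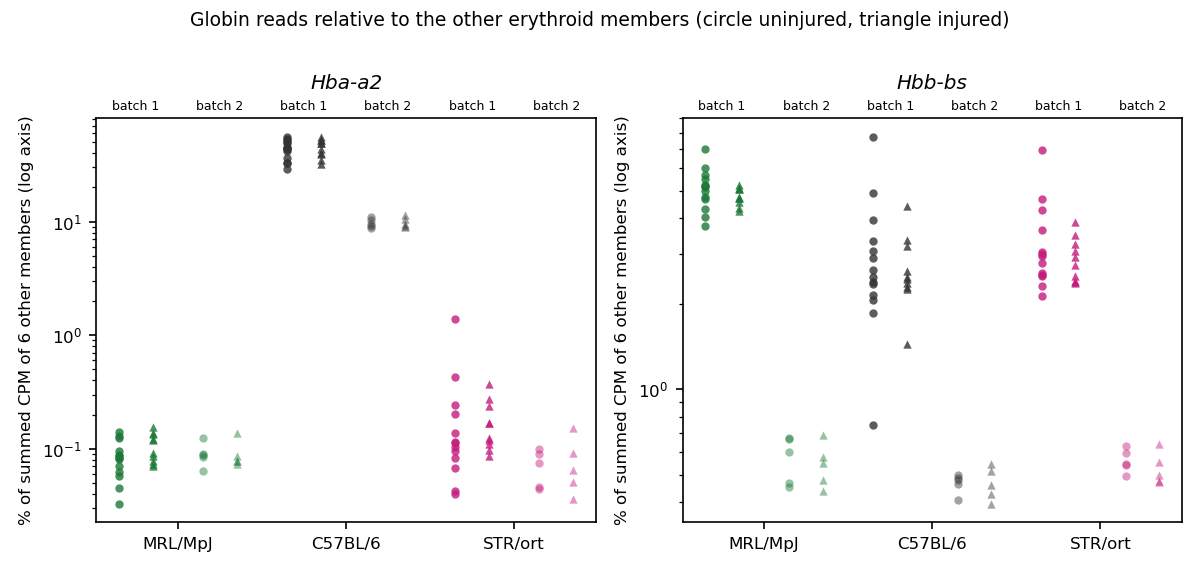
CPM of Hba-a2 (left) and Hbb-bs (right) as a percentage of the summed CPM of the 6 other members (log axis) in each library, by strain and batch, with circles for uninjured and triangles for injured joints. BL6 had medians of 44.0% and 9.55% for Hba-a2 in batches 1 and 2, and Hbb-bs fell to about the same low range in every strain in batch 2.

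Within a library, the CPM of each globin was set against the summed CPM of the 6 other members. The measure is a ratio of reads without regard to transcript length and is compared only between libraries. For Hba-a2 its median in batch 1 was 44.0% in BL6 (lowest 28.8%, highest 56.0%, 24 libraries), 0.0867% in MRL (0.0326% to 0.156%, 23 libraries) and 0.119% in STR (0.0398% to 1.38%, 23 libraries). In batch 2, with 10 libraries a strain, it was 9.55% in BL6, 0.0854% in MRL and 0.0698% in STR. BL6 thus stood apart in both batches on this scale too, while the ranges of MRL and STR overlapped.

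For Hbb-bs the median ratio in batch 1 was 4.999% in MRL (3.77% to 7.04%), 2.49% in BL6 (0.747% to 7.76%) and 2.93% in STR (2.14% to 6.99%). In batch 2 it was 0.564% in MRL, 0.474% in BL6 and 0.543% in STR. The ranges of the strains overlapped in both batches, and no library of batch 2 reached the lowest of batch 1 (0.747%), the highest being 0.690% in MRL.

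Injury was examined in each strain as injured against uninjured contralateral joints. At 1-day, 0 of 24 tests on members were called with edgeR (7 at an unadjusted p under 0.05) and 0 with DESeq2. Of all genes, 2.02% were called in MRL, 5.6% in BL6 and 4.31% in STR. In BL6 the 8 members had a median log2 fold change of -0.48 (all genes -0.02), and 5 had an adjusted p under 0.05 without passing the fold limit. Slc4a1 in BL6 had 1345, 1699, 1429, 1018 and 1283 CPM in injured and 1382, 1996, 2154, 1915 and 1948 CPM in uninjured joints at 1-day, groups that overlapped through uninjured replicate 1 (log2 fold change -0.47, SE 0.13, adjusted p = 0.00755). Without that replicate, 4 members were called (Car1, Car2, Alas2 and Epb42, at -0.67 to -0.59). Car1 in BL6 was also called with housekeeping scaling or RUVg (both -0.61), without injured replicate 2 or 5 or without uninjured replicate 4, and Car2 without injured replicate 2. The medians in MRL and STR were both -0.14. Hba-a2 in STR had a log2 fold change of -1.004 (SE 0.37, adjusted p = 0.0887) and was not called. It was called in 1 fit of all libraries (-0.98, adjusted p = 0.0188) and without uninjured replicate 3 (-1.18, adjusted p = 0.0441) or 4 (-1.22, adjusted p = 0.0239). The 13 neutrophil markers of the marrow had a median of -0.47 in BL6. The part of these cells in the member values was not tested.

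**Figure D5:**
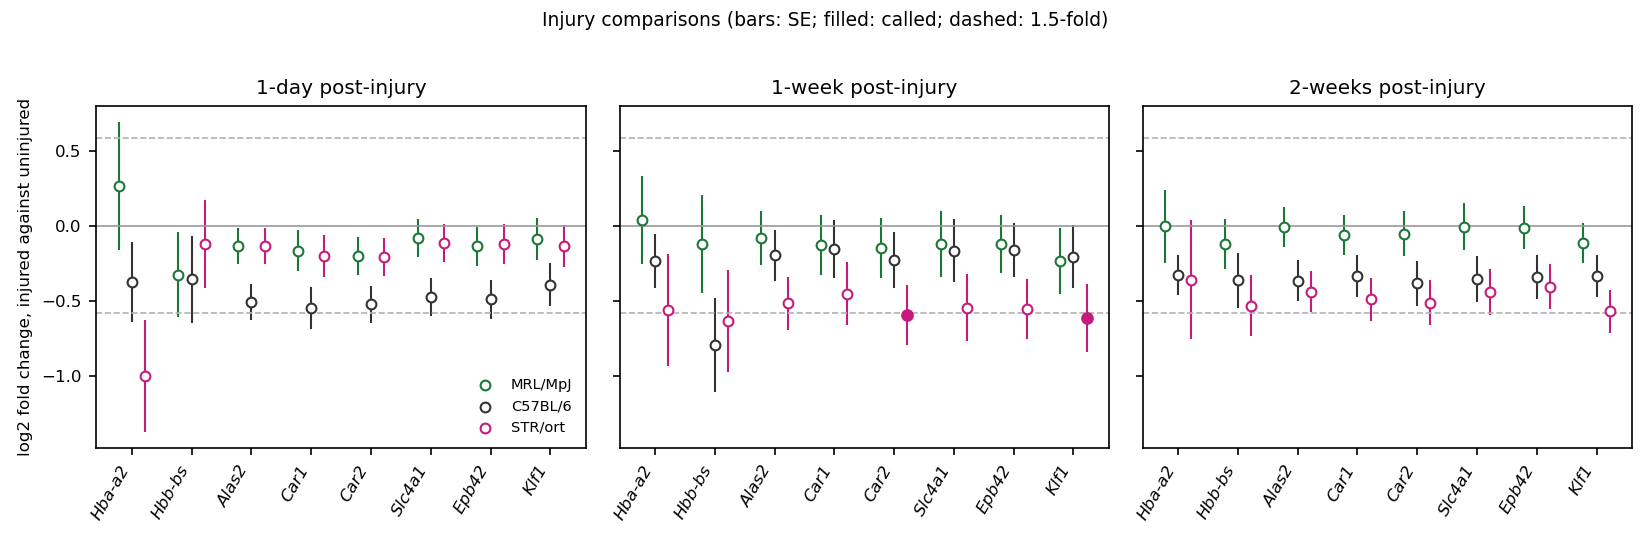
Log2 fold changes of injured against uninjured joints for each member, 1 panel a time, in MRL/MpJ (green), C57BL/6 (black) and STR/ort (pink), with bars for the standard error, filled points where called and dashed lines at a fold of 1.5. Most values lay below 0 in BL6 and STR, with 2 called, Car2 and Klf1 in STR at 1-week.

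At 1-week, 2 of 24 tests on members were called (7 at an unadjusted p under 0.05), both in STR. Of all genes, 3.13% were called in MRL, 5.82% in BL6 and 9.21% in STR. Car2 in STR had 237, 465, 698, 473 and 458 CPM in injured and 426, 669.6, 1101 and 611 CPM in uninjured joints (log2 fold change -0.60, SE 0.20, adjusted p = 0.0321). Klf1 had 23.8, 50.1, 82.9, 49.8 and 55.9 CPM in injured and 48.4, 80.6, 119 and 72.1 CPM in uninjured joints (log2 fold change -0.61, SE 0.22, adjusted p = 0.0476). The groups overlapped for both genes. Replicates 1 and 3 were the lowest and highest in both joints, and the injured joint was lower in 4 of 4 pairs with the same number. These libraries deviated together by number, and with the number as a block both calls held, at -0.61 (SE 0.09, adjusted p = 4.26e-05) for Car2 and -0.68 (SE 0.11, adjusted p = 0.000156) for Klf1. Without the block, leaving out uninjured replicate 3 gave -0.28 and -0.34, leaving out injured replicate 1 gave -0.43 for each, and leaving out both gave -0.12 and -0.16, none of them called. These settings keep 1 library of a number without the other, and the labels name no animals at 1-week. The Klf1 call was also lost without injured replicate 2, 4 or 5 or uninjured replicate 2 or 4 (-0.66 to -0.59, adjusted p 0.0558 to 0.085), and the Car2 call without injured replicate 2 (adjusted p = 0.0559) or 5 (adjusted p = 0.0538). Neither was called with RLE factors, at -0.58 (adjusted p = 0.0365) for Car2 and -0.60 (adjusted p = 0.0534) for Klf1, or with housekeeping scaling (-0.56 and -0.58), and DESeq2 lost Car2 (-0.58). Calls were also gained. Without injured replicate 3 or uninjured replicate 1 of STR, Slc4a1, Alas2, Car1 and Epb42 were called (-0.79 to -0.61). Hbb-bs in BL6, at -0.80 and not called, was called with RUVg, in 1 fit of all libraries and with the replicate block. It was also called without uninjured replicate 2 (-0.99, adjusted p = 0.0353) or 5 (-0.95, adjusted p = 0.0496).

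Medians of other marrow and muscle markers were also below 0 in injured joints of STR at 1-week, where 9.21% of all genes were called. There 7 of 13 neutrophil markers were called lower in injured joints (median -0.60), 7 of 11 megakaryocyte markers (-0.61), 1 of 10 B cell markers (-0.53) and 7 of 8 skeletal muscle markers (-0.83), beside a median of -0.56 over the 8 members and -0.03 over all genes. The part of these cells and tissues in the member values was not tested.

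At 2-weeks, 0 of 24 tests on members were called with edgeR (14 at an unadjusted p under 0.05) and 1 with DESeq2, which was Klf1 in STR (log2 fold change -0.59, adjusted p = 0.00102 by DESeq2). In edgeR the same gene was called without the 4 libraries that stood apart (-0.59, adjusted p = 0.000499), and without injured replicate 1 or 5 or uninjured replicate 2 or 4 (-0.67 to -0.60). Slc4a1, Car2 and Hbb-bs in STR were called without injured replicate 1 (-0.62, -0.65 and -0.78), and Car2 and Hbb-bs without uninjured replicate 4 (-0.59 and -0.65). Of all genes, 1.16% were called in MRL, 2.95% in BL6 and 4.66% in STR. Klf1 in STR had 42.5, 28.7, 29.8, 29.9 and 36.4 CPM in injured and 54.6, 42.4, 48.2, 39.7 and 65.0 CPM in uninjured joints, groups that overlapped in range (log2 fold change -0.57, SE 0.14, adjusted p = 0.00573). The labels name the same animals for both joints at 2-weeks. In BL6 each of the 8 members was lower in the injured joint in 5 of 5 animals, with a median log2 fold change of -0.35 over the members. In STR this held for 6 members, while Hba-a2 was lower in 3 and Hbb-bs in 4 of 5 animals (median over the members -0.47). In MRL the injured joint was lower in 2 or 3 of 5 animals, and the median over the members was -0.03. These medians are of the fit that does not pair the joints. Within animals, the median difference in log2 CPM in MRL ran from -0.007 for Hbb-bs to 0.21 for Epb42. With the animal as a block, 6 members in BL6 and 7 in STR had an adjusted p under 0.05 (edgeR), and 0 passed the fold limit as well. Between the same groups of BL6 and STR, the median log2 fold changes were -0.30 and -0.30 over 13 neutrophil markers, -0.41 and -0.29 over 11 megakaryocyte markers and -0.23 and -0.41 over 10 B cell markers. Of 7 tested cartilage markers 2 and 3 were called higher, and their summed CPM was 2641 ± 218 in uninjured and 3762 ± 914 in injured joints of BL6 and 2758 ± 440.3 and 4984 ± 728 in STR (mean ± SD, n = 5). The part of these cells and tissues in the member values was not tested.

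Whether the injury effect differed between strains was tested directly as an interaction. The interaction was called for 0 of 8 members at each of the 3 times with edgeR, with 0 at an unadjusted p under 0.05 each time, and for 0 with DESeq2. Of all genes, 2.93%, 0.901% and 0.26% were called in the order of time. That fit does not pair the joints of an animal. With the animal as a block at 2-weeks, 5 of 8 members had an unadjusted p under 0.05 and 0 were called (adjusted p 0.335 for Alas2 to 0.789 for Hba-a2). The replicate number was also used as a block at 1-week, where libraries of the same number deviated together in every pair only in STR. There 6 members had an unadjusted p under 0.05 and 0 were called (adjusted p 0.0812 for Car2 to 0.477 for Hbb-bs). A difference of the injury effect between strains thus did not pass the adjustment over all genes in either fit.

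Uninjured contralateral joints of batch 1 were compared with 0-day joints of the same strain. At 1-day, 0 members were called in MRL (0.0867% of genes) and BL6 (0.0635%), and 1 in STR (10%). At 1-week 0 members were called in MRL (0%), BL6 (5.69%) and STR (13.8%). Over the 48 tests, 12 had an unadjusted p under 0.05, and DESeq2 called 1. The gene called was Hba-a2 in STR at 1-day, whose values are given above (log2 fold change 2.71, SE 0.52, adjusted p = 0.000129). All 5 libraries at 1-day were above the highest at 0-day, 2.61 CPM, and without replicate 2 the log2 fold change was 2.10 (adjusted p = 0.000783). With RUVg it was 2.34 with an adjusted p of 0.0803, and not called. The injured STR joints at 1-day, outside this comparison, had 4.00 to 7.05 CPM, also above the 0-day libraries. In BL6 at 1-week the median of the 8 members was 0.43 (all genes 0.00), with adjusted p values under 0.05 for Alas2, Car2, Slc4a1 and Epb42 and folds under the limit. There Car2 was called with RUVg (0.61, adjusted p = 0.00258), which is the 1 call under that setting. Hbb-bs in BL6 at 1-week, at 0.99 and not called, was called in 1 fit of all libraries (adjusted p = 0.0129) and without 1-week replicate 2 (1.18) or 5 (1.14). Alas2 in STR at 1-week was called without 0-day replicate 1 (0.64) or 1-week replicate 1, 2 or 4 (0.59 to 0.69). Tissue markers differed between the same groups. In BL6 from 0-day to 1-week all 7 tested cartilage markers were called lower (median -1.35), while the 8 skeletal muscle markers had a median of 0.38. In STR from 0-day to 1-day all 8 muscle markers were called lower (median -1.07). The part of these tissues in the member values was not tested.

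Across the 100 libraries, which share strain, batch and joint composition, the 6 members that are not globins varied together. The Pearson correlation of log2 CPM was 0.986 for Slc4a1 and Car2 and at lowest 0.684, for Epb42 and Klf1. After group means were removed, the pairs among these 6 ran from 0.801 to 0.969. Hbb-bs correlated with them at 0.331 to 0.712, and at 0.323 to 0.571 within groups. Hba-a2 correlated with them at -0.172 to 0.386, and at 0.209 to 0.308 within groups, and with Hbb-bs at 0.079 over libraries and -0.019 within groups.

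The genes outside the set with the highest correlation over the 100 libraries were Fhdc1 for Slc4a1 (0.989), Car2 (0.987) and Alas2 (0.976), Epb41 for Epb42 (0.983), Slc30a10 for Car1 (0.950) and A730089K16Rik for Klf1 (0.925). For Hba-a2 they were 2610507I01Rik (0.976), Skint3 (0.976) and Ccdc92b (0.953), and for Hbb-bs Srrm1 (0.947), Gps2 (0.945) and Hmgb1 (0.945). Neither set of 3 for the globins holds a gene of the erythroid lists. The next most alike were Cdc25b and Kel for Slc4a1, Kel and Lmo2 for Car2, Gypc and Tspan33 for Alas2, Btnl10 and Xpo7 for Epb42, Ctse and Hebp1 for Car1, and Pdzk1ip1 and Tspan33 for Klf1.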

How the data were processed

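Whole knee joints of 3 strains were profiled by RNA-seq in 100 libraries. The authors aligned the reads with TopHat2 (2.0.11) to mm10 and counted RefSeq genes with featureCounts, and the deposited counts are whole numbers without normalization. The strand setting is not given in the sources used here. Of 17313 entries, 3 repeats were dropped. The authors' filter (2 or more counts in 5 or more libraries) took out 0 genes. No 2 libraries of a group were identical (190 pairs).

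Each time point was fitted alone with edgeR (4.0.16, R 4.3.3), with TMM factors, 1 mean per strain and joint, the quasi-likelihood test and p values adjusted by Benjamini-Hochberg across all genes. Where DESeq2 (1.42.0) is not named, adjusted p values are those of edgeR. Uninjured joints of batch 1 had a fit of their own. Interactions were called by adjusted p alone. Log2 CPM used a prior count of 2 as offset. The tests were tested on simulated data.

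The members and gene lists were chosen with earlier results of these data known. All 8 members were named, with up to 4 genes per erythroid list (called in the most comparisons, ties by the smallest adjusted p) and, for each member, the 3 genes most correlated with it. Several globin genes (Hba-a1, Hbb-bt, Hbb-b1, Hbb-b2, Hbb-y, Hbb-bh1 and Hbb-bh2) were looked for and have no entry under these names in the count table. Alternatives were DESeq2, RLE factors, library sizes without globin genes, scaling by 25 housekeeping genes, RUVg, other filters, 1 fit of all libraries, a replicate block and each library left out. Leaving out the 4 libraries that stood apart was chosen after seeing the data. Injured and uninjured libraries with the same number deviated together (correlation over 0.1 in every pair) in STR at 1-week and in BL6 and STR at 2-weeks, where the labels name the same animals.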

Additional observations from a re-analysis of the deposited data

Results flagged for a closer look

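In 8 of 168 member and group combinations, 1 library lay far from the rest by Dixon's test, which chance alone gives in about 1 of 20. Hba-a2 was at 3285 CPM in BL6 1-week uninjured replicate 4, above the 1476 to 1897 CPM of the other libraries. Hbb-bs was at 23.0 CPM in BL6 2-weeks uninjured replicate 2 (others 15.97 to 17.1) and at 13.1 CPM in STR 2-weeks injured replicate 1 (others 5.85 to 7.76). MRL 0-day replicate 2 was high in Alas2, at 1022 CPM (others 818 to 840.3), and in Slc4a1, at 2915 CPM (others 2384 to 2465). Slc4a1 was low in MRL 1-week injured replicate 3, at 1824 CPM (others 2292 to 2414). MRL 2-weeks injured replicate 4 was low in Epb42, at 105 CPM (others 164 to 186), and in Klf1, at 50.8 CPM (others 80.3 to 90.0).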

How the results depend on the processing

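No called strain difference in a member changed direction under any alternative, while calls near the limits were lost or gained. The number of member calls at 0-day was 19, and 16 to 19 with each library left out in turn. In uninjured and injured joints it ran from 14 to 17 and 15 to 17 at 1-day, 12 to 17 and 18 to 19 at 1-week, and 16 to 17 and 18 to 22 at 2-weeks. Under the other settings it was 16 to 19 at 0-day, 16 to 17 and 16 to 18 at 1-day, 15 to 17 and 18 to 20 at 1-week, and 15 to 17 and 19 to 22 at 2-weeks. In STR against BL6 at 0-day the count of 5 was 3 with DESeq2, RLE factors or 1 fit of all libraries and 4 with RUVg. Injury calls were fewer. At 1-day the count of 0 became 1 with housekeeping scaling or RUVg (Car1 in BL6) or 1 fit of all libraries (Hba-a2 in STR), and 4 without the 4 libraries that stood apart. At 1-week the count of 2 became 1 with DESeq2 and 0 with RLE factors, housekeeping scaling or without those 4 libraries, and it became 3 with RUVg (Hbb-bs in BL6, -0.92) or 1 fit of all libraries (-0.83, adjusted p = 0.0332). At 2-weeks the count of 0 became 1 with DESeq2, RLE factors, filterByExpr or without those 4 libraries. With single libraries left out it was 0 to 4 at 1-day (4 without BL6 uninjured replicate 1), 0 to 6 at 1-week (6 without STR injured replicate 3 or uninjured replicate 1) and 0 to 4 at 2-weeks (4 without STR injured replicate 1). The interactions gave 0 in all of these. Against 0-day, the count of 1 ran from 1 to 2 and was 2 with 1 fit of all libraries, while with RUVg the 1 call was Car2 in BL6 at 1-week in place of Hba-a2 in STR at 1-day.

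With the replicate block, 0 members were called at 1-day, 3 at 1-week and 0 at 2-weeks. The call added at 1-week was Hbb-bs in BL6 (log2 fold change -0.65, adjusted p = 0.00651), where the libraries share only a number. The block changed no other call. Of 2640 member values under the settings that kept all or most libraries, 29 lost and 35 gained a call, and 0 called values changed sign, while 57 uncalled ones did. Of 2720 with 1 library left out, 57 lost and 47 gained a call, and 0 called values changed sign, while 79 uncalled ones did. Apart from those named, the cause of these changes was not tested. The low counts of Hba-a2 in MRL and STR limit its fold changes there.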

Other observations

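Macrophages of the marrow clear aged red cells and recycle their haem iron. Of 9 genes listed for such macrophages, 5 were called lower in STR than in MRL at 0-day (median log2 fold change -0.64, 14.8% of all genes called). In STR against BL6, 5 were called lower (median -0.59, 13.8% of all genes). In BL6 against MRL, 1 was called higher (median -0.02, 15.9% of all genes).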
